A study of Mus musculus with 2 samples.

Results

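Mitochondria contain ribosomes of their own, and the transcripts of their proteins were compared between the dormant-derived melanoma line B16F1-GFP-D and its maternal line B16F1-GFP-M. The members are all genes on the arrays whose name in the array files starts with *Mrpl* (mitochondrial ribosomal protein, large subunit) or *Mrps* (small subunit) followed by a digit. The name of a gene, and not its measured value, thus decided whether it was a member. The set as a whole was chosen with earlier results of these data known. There were 76 such genes among the 27790 genes or transcripts on the arrays, 47 for the large subunit and 29 for the small one. They were covered by 126 probes, and each gene was read from its brightest probe. The current RefSeq symbol was equal to the name in the array files for all 76.

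B16F1 is a mouse melanoma line, and both lines carried green fluorescent protein (GFP). B16F1-GFP-M is the line that was injected into mice. B16F1-GFP-D was grown from GFP-positive cells sorted from pooled organs of control and immunised tumour-free mice a year after challenge, and stems from 1 colony, so that differences between the lines include those between a single clone and its parent. Both lines were cultured in the same serum-containing medium with antibiotics and received no treatment.

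RNA of the lines was hybridised to 2 Agilent 2-colour arrays on 1 slide. On array 1, Cy5 marked the maternal and Cy3 the dormant-derived line, and array 2 had the dyes exchanged. The labels name no separate cultures or extracts, so the arrays counted as 1 replicate per line, no test was made, and the standard deviation (SD) between the arrays covers dye and array effects and no variation between cultures. All values below are log2 ratios of B16F1-GFP-D to B16F1-GFP-M, background-corrected and normalised within each array, where 0 is no difference and 1 is 2-fold higher in B16F1-GFP-D. A gene was detected when its probe was well above background in the same line on both arrays, which held for 12540 genes. All 76 members were detected, and all were well above background in both lines. All 8 melanocyte markers examined were detected, with a median of -0.37. The highest were *Pmel* with 0.30, *Mlana* with 0.14 and *Tyrp1* with 0.06, and the lowest *Mitf* with -0.92, *Dct* with -0.78 and *Mc1r* with -0.40. Of 7 fibroblast markers 2 were detected, *Col1a1* with 0.40, well above background in B16F1-GFP-M on array 1 only, and *Col1a2* with -0.33. Both depended on the background correction, with 1.97 for *Col1a1* and -0.87 for *Col1a2* by the scanner software's ratio, and 1.13 and -0.60 with an offset of 0. Of 6 leukocyte markers 2 were detected, *Cd3e* with -0.01 and *Lyz2* with -0.11, while the pan-leukocyte marker *Ptprc* was not.

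The mitochondrial ribosome, or mitoribosome, translates the few messenger RNAs of the mitochondrial genome, which encode core subunits of the respiratory chain. Its ribosomal RNAs are made inside the organelle, whereas all its proteins are encoded in the nucleus, translated in the cytosol and imported. Some of these proteins have counterparts in the bacterial ribosome, and the others were added during the evolution of mitochondria.

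The sequences below belong to the members that were furthest apart between the lines. The first set shows what the arrays measured: probes of 60 bases, given 5′ to 3′ from the array files. The probes of *Mrpl18* and *Mrpl24* printed here have at least 1 reading frame with no stop codon, and that of *Mrpl42* has 0. The first pair are separate probes of *Mrpl18*, on the minus strand of mm9 at chr17:13106738-13106797 and chr17:13106784-13106843. Capitals mark the 14 bases where they overlap, of which 13 are the same letter in both. The *Mrpl42* probe spans chr10:94943556-94952883, minus strand, so that its 60 bases come from separate stretches, and the *Mrpl24* probe lies at chr3:87727137-87727196, plus strand.
Mrpl18, probe 2: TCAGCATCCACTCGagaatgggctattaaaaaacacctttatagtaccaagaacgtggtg
Mrpl18, probe 3: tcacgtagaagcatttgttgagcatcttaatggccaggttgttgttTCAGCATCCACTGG
Mrpl42: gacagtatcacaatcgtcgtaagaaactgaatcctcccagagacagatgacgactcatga
Mrpl24: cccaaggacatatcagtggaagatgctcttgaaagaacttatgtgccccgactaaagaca

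Most mitoribosomal transcripts had similar levels in the lines. The median of the 76 members was 0.09, with 0.08 on array 1 and 0.04 on array 2, beside a median of -0.01 for all detected genes. Since bulk RNA was compared, fewer expressing cells and less RNA per cell cannot be told apart. Values on both arrays were higher for 40 members, or 52.6%, against 41.0% of all detected genes. They were lower on both for 27 members, or 35.5%, against 42.8%. The remaining 9 had opposite signs on the arrays, as did 16.2% of all detected genes. Within 1.2-fold lay 41 members, or 53.9%, against 48.1% of detected genes.

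Few members were far apart between the lines. By size alone, without a test, 4 members were past 1.5-fold in the same direction on both arrays, or 5.26%, where 15.8% of all detected genes were. Of these members 3 were higher, or *Mrpl18*, *Mrpl42* and *Mrps25*, against 8.77% of detected genes, and 1 was lower, *Mrpl24*, against 7.02%. Past 2-fold was 1 member, or 1.32%, where 5.02% of detected genes were, and it was higher in B16F1-GFP-D, as were 3.09% of detected genes. No member was past 2-fold downwards, where 1.94% of detected genes were. The values of the members ranged from -0.95 to 1.12 and their SD over genes was 0.37, where that of all detected genes was 0.52. The members were bright on these arrays. When the detected genes were divided into 4 equal groups by brightness, 49 members fell into the brightest and none into the dimmest, and 18.9% of all genes of the brightest group were past 1.5-fold. The pooled SD between the arrays was 0.13 over the members and 0.15 over all detected genes. For 12 members the mean ratio was smaller than its own SD. Across the members, which share both arrays, the values on array 1 and array 2 were correlated with a Pearson coefficient of 0.88 and a Spearman coefficient of 0.88, given as a description.

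**Figure D1:**
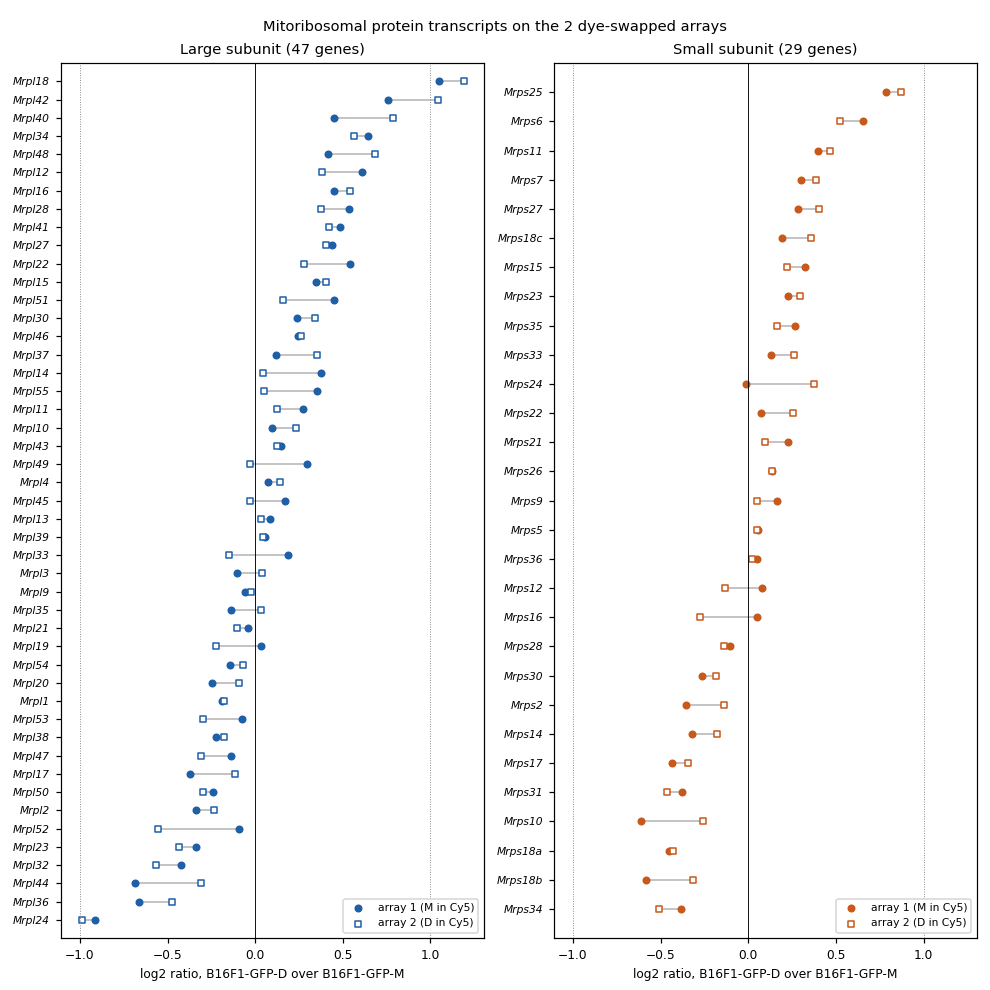
Log2 ratio of B16F1-GFP-D to B16F1-GFP-M (horizontal axis) of each of the 76 members, with array 1 as filled circles and array 2 as open squares, for the large subunit (left, 47 genes) and the small subunit (right, 29 genes), in the order of the mean; dotted lines mark 2-fold. Most genes lie well within 2-fold, and *Mrpl18* alone is beyond it on both arrays.

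The large and the small subunit had similar values. The median of the large subunit was 0.07, with 0.10 on array 1 and 0.04 on array 2. That of the small subunit was 0.11, with 0.07 and 0.05. The difference of the medians, large minus small, was -0.04, and it was 0.02 on array 1 alone and -0.01 on array 2 alone, so its sign was not the same on the arrays. Of the large subunit 24 members were higher and 17 lower on both arrays, and of the small subunit 16 were higher and 10 lower. The largest values in both directions belonged to the large subunit, which ranged from -0.95 to 1.12, while the small subunit ranged from -0.45 to 0.83.

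The names do not follow the structure in every case. *Mrps18a* and *Mrps30* are named for the small subunit, but their proteins sit in the large one. *Mrps18a* was at -0.45 on array 1 and -0.43 on array 2, and *Mrps30* at -0.27 and -0.18. Both were lower in the dormant-derived line each time. With these genes counted where their proteins sit, the medians were 0.06 for 49 large subunit genes and 0.14 for 27 small subunit genes, and the difference was -0.08. *Mrps36*, whose product is now known as a part of the α-ketoglutarate dehydrogenase complex, was at 0.03. It stayed among these 27 genes and was left out of the comparison by origin below.

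By origin, the 46 members with a bacterial counterpart had a median of 0.05, and the 29 that are specific to mitochondria had 0.14. Within the large subunit by structure, these medians were 0.04 for 30 bacterial-type genes and 0.07 for 19 specific ones. Within the small subunit they were 0.08 for 16 and 0.18 for 10. The quartiles of the 2 origins overlapped, from -0.18 to 0.29 for the bacterial type and from -0.22 to 0.26 for the specific proteins.

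*Mrpl18* had the highest ratio of all members. The bacterial counterpart of its protein binds 5S ribosomal RNA in the central protuberance of the large subunit. On array 1 the log2 intensity of its brightest probe was 12.01 in B16F1-GFP-D and 10.96 in B16F1-GFP-M, and on array 2 it was 11.97 and 10.77. The log2 ratios were 1.05 and 1.19, with a mean of 1.12 ± 0.10 (SD between the arrays), or 2.18-fold higher. All 3 of its probes gave a difference of this size. Probe 2 was at 1.25 on array 1 and 1.34 on array 2, and probe 3 at 1.24 and 1.45.

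*Mrpl42*, a mitochondria-specific protein of the large subunit, came second. Its log2 intensity was 13.38 in B16F1-GFP-D and 12.63 in B16F1-GFP-M on array 1, and 13.31 and 12.27 on array 2. The ratios of 0.75 and 1.04 had a mean of 0.90 ± 0.20, or 1.86-fold higher, and only that on array 2 was past 2-fold. A dimmer second probe was at 1.13 and 1.28, past 2-fold on both arrays.

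*Mrps25*, a mitochondria-specific protein, was the highest of the small subunit. Its log2 intensity was 10.42 in B16F1-GFP-D and 9.64 in B16F1-GFP-M on array 1, and 10.58 and 9.71 on array 2. The ratios of 0.78 and 0.87 gave a mean of 0.83 ± 0.06, or 1.77-fold higher. The second probe did not show this difference. It was at -0.12 and 0.04 and was dim (mean log2 intensity 6.84, against 10.09 for the first). The background correction draws dim ratios towards 0, and its part in the gap between these probes was not tested.

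*Mrpl24* had the lowest ratio of all members. The bacterial counterpart of its protein binds the large ribosomal RNA early in assembly and lies near the exit of the peptide tunnel. The log2 intensity was 10.84 in B16F1-GFP-D and 11.75 in B16F1-GFP-M on array 1, and 10.81 and 11.80 on array 2. The ratios of -0.91 and -0.99 had a mean of -0.95 ± 0.05, or 1.93-fold lower. It was covered by a single probe, the one printed above.

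**Figure D2:**
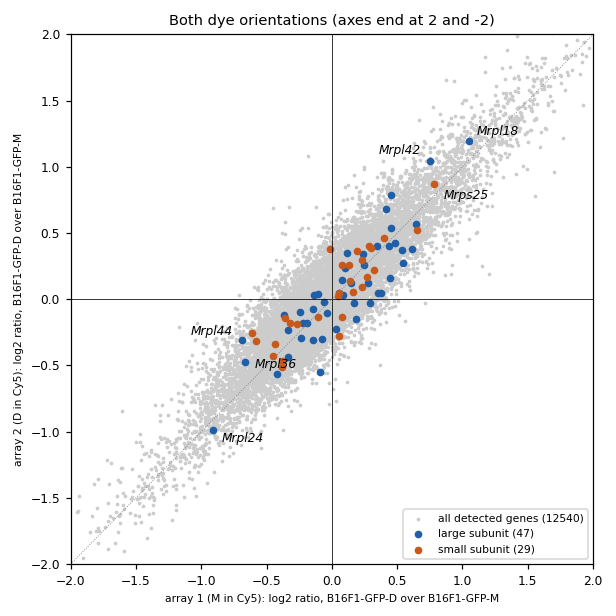
Log2 ratio of B16F1-GFP-D to B16F1-GFP-M on array 1 (horizontal axis) against array 2 (vertical axis) for all 12540 detected genes in grey, the 47 large subunit genes in blue and the 29 small subunit genes in orange; genes beyond 2 on either axis are not drawn. *Mrpl18*, *Mrpl42* and *Mrps25* lie at the upper right and *Mrpl24* at the lower left. The other members lie between these, with means from -0.57 for *Mrpl36* to 0.62 for *Mrpl40*.

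The other 5 of the 8 highest members were past 1.5-fold on at most 1 array. *Mrpl40*, a mitochondria-specific large subunit protein, was at 0.45 on array 1 and 0.79 on array 2, and its 2 other probes had means of 0.80 and 0.77. *Mrpl34*, with a bacterial counterpart, was at 0.64 and 0.57. *Mrps6*, with a bacterial counterpart in the platform of the small subunit, was at 0.65 and 0.52, and its other probe was at a mean of 0.83. *Mrpl40* and *Mrps6* lay on the upper side with every detected probe, while *Mrpl34* was covered by a single probe. *Mrpl48*, a mitochondria-specific large subunit protein, was at 0.42 and 0.68. *Mrpl12* was at 0.61 and 0.38. Its protein forms the flexible stalk of the large subunit that recruits translation factors, and is known to bind the mitochondrial RNA polymerase as well. The neighbours in this order do not differ beyond their spread, as *Mrpl40* had a mean of 0.62 ± 0.24, *Mrpl34* of 0.60 ± 0.06, *Mrps6* of 0.59 ± 0.09, *Mrpl48* of 0.55 ± 0.19 and *Mrpl12* of 0.50 ± 0.16.

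Above *Mrpl24*, the other 7 of the 8 lowest members lay between -0.57 and -0.43. *Mrpl36*, with a bacterial counterpart, was at -0.66 on array 1 and -0.48 on array 2. *Mrpl44*, a mitochondria-specific protein related to ribonucleases, was at -0.69 and -0.31, and its 2 dimmer probes had means of -0.17 and -0.07. *Mrpl32* was at -0.42 and -0.56. Its protein is cut by the m-AAA protease of the inner membrane before it joins the ribosome. All 3 were lower on both arrays, *Mrpl44* to a different extent by array and by probe. The rest of this group is named for the small subunit. *Mrps34* was at -0.38 and -0.51, and *Mrps18b* at -0.58 and -0.31, both specific to mitochondria. *Mrps18a*, given above, had a mean of -0.44 ± 0.01, and *Mrps10*, with a bacterial counterpart, was at -0.61 and -0.26. Mammals have 3 related genes of the S18 type in mitochondria. The other one, *Mrps18c*, was on the other side of 0 with 0.19 and 0.36.

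Genes whose proteins lie next to each other in the ribosome did not always share a direction. Around the exit of the peptide tunnel, *Mrpl22* had a mean of 0.41, *Mrpl23* of -0.39, *Mrpl24* of -0.95 and *Mrpl47* of -0.22, and *Mrpl45*, which ties the ribosome to the inner membrane, had 0.07. Near the peptidyl transferase centre, *Mrpl16* was at 0.49, *Mrpl4* at 0.11, *Mrpl3* at -0.03 and *Mrpl2* at -0.29. In the stalk and its base, *Mrpl10* was at 0.17, *Mrpl11* at 0.20 and *Mrpl12* at 0.50, all higher on both arrays. At the decoding site, *Mrps12* was at -0.03, with 0.08 on array 1 and -0.13 on array 2. These positions were chosen with the values known.

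Different probes of a gene did not always give the same ratio. Of the 126 probes 115 were detected. There were 29 members with more than 1 detected probe, and the median range between their probes was 0.25 on the log2 scale. The pooled SD of 0.13 between the arrays is another measure, taken from the brightest probes of all members. For 8 members the detected probes had means of different sign. The widest range, 0.87, was that of *Mrps25*, given above. *Mrpl50*, a mitochondria-specific large subunit protein, was at -0.24 and -0.30 with its brightest probe and at 0.50 on both arrays with the dimmer one. *Mrps17*, with a bacterial counterpart, was at -0.43 and -0.34 with the brightest probe and at 0.05 and 0.30 with the other. For these 3 genes the ratio depended on the probe by more than the arrays differed. The probes of *Mrpl3* ranged from -0.03 to 0.47, those of *Mrpl38* from -0.20 to 0.28 and those of *Mrpl1* from -0.18 to 0.17. The probes of *Mrps15* ranged from -0.07 to 0.27 and those of *Mrpl35* from -0.08 to 0.23. Probes can lie in different exons or transcript ends, and a part of splicing or of transcript ends in these ranges was not tested.

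**Figure D3:**
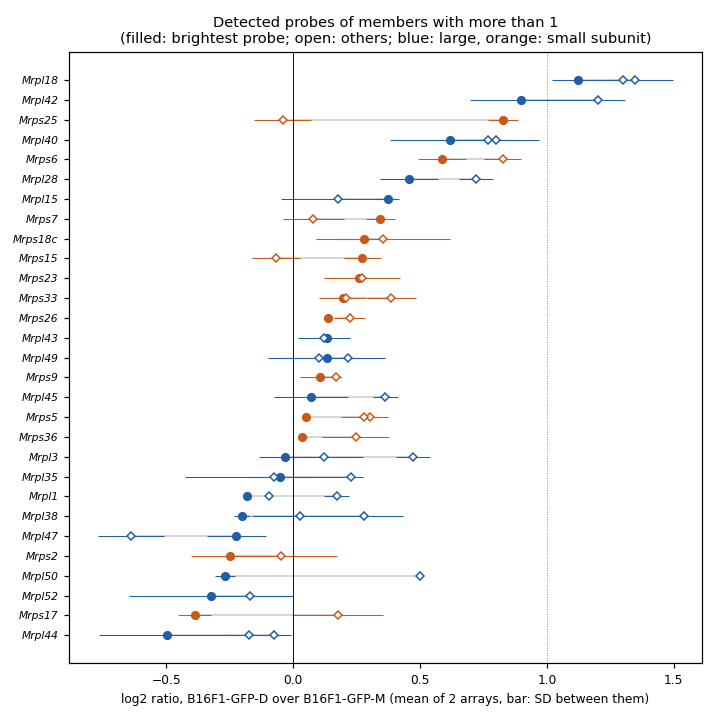
Mean log2 ratio of B16F1-GFP-D to B16F1-GFP-M (horizontal axis) of every detected probe of the 29 members with more than 1, with bars for the SD between the 2 arrays, filled symbols for the brightest probe and open ones for the others. The 3 probes of *Mrpl18* lie together above 1, while the pair of *Mrps25* spans 0.87 and those of *Mrpl50* and *Mrps17* lie on both sides of 0.

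Most of the 8 lowest members lay on chromosomes where the detected genes as a whole had lower values. In mm9 coordinates of the probes, 18 members lay on chromosomes 3, 13 and 17, which were set apart because earlier results of these data had shown lower values there. Of these 18, on both arrays 12 were lower and 6 higher, with a median of -0.22, and -0.20 and -0.21 on the single arrays. The median was -0.22 for the 9 large subunit genes and -0.22 for the 9 small subunit genes there. Of the 58 members on other chromosomes, 15 were lower and 34 higher, with a median of 0.14. The 1650 detected genes of chromosomes 3, 13 and 17 had a median of -0.16 and 56.9% were lower on both arrays, against a median of 0.01 and 40.6% for the 10890 others. Of the 8 lowest members 7 lay on these 3 chromosomes, among them *Mrpl24* on 3, *Mrpl36* and *Mrpl32* on 13, and *Mrps34*, *Mrps18b*, *Mrps18a* and *Mrps10* on 17. The exception was *Mrpl44* on chromosome 1. The highest member, *Mrpl18*, lay on chromosome 17 as well, as did *Mrpl28* with 0.45 and *Mrpl14* with 0.21. The part of chromosome copy number in these values was not tested.

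**Figure D4:**
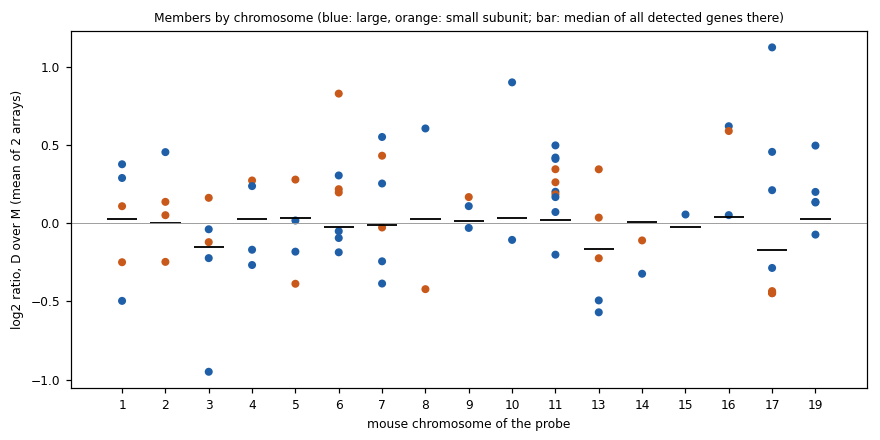
Mean log2 ratio of B16F1-GFP-D to B16F1-GFP-M (vertical axis) of each member by the mouse chromosome of its probe, with large subunit genes in blue, small subunit genes in orange, and black bars for the median of all detected genes of that chromosome. The bars of chromosomes 3, 13 and 17 lie at -0.15, -0.16 and -0.17, below those of the other chromosomes, and chromosome 17 holds both the highest member and 4 of the 8 lowest.

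Promoters were read from the RefSeq promoter table of GRCm38.p6, which held 73 promoters of 67 members. Nuclear genes of mitochondria are known targets of the factors NRF1, GABP and YY1, and of MYC, which binds E-boxes. The motifs searched on both strands, from 250 bases before to 50 after the start, were a pair of GCGC stretches separated by A and any base (on the same strand) for NRF1, CCGGAAG for GABP (the ETS type), ANATGGCGG for YY1 and the E-box CACGTG. Each motif was counted on its own, overlaps included. NRF1 motifs were in 16.4% of member promoters and 4.60% of all 32851 promoters, and ETS motifs in 32.9% and 8.86%. YY1 motifs were in 9.59% of member promoters and 1.86% of all, and E-boxes in 9.59% and 7.15%. The 7 member promoters with an E-box belonged to only 5 genes, as *Mrpl2* has several overlapping promoters with it. The medians with and without a motif were as follows. The 12 genes with an NRF1 motif had a median of 0.09 and the 55 without it 0.14. The 24 genes with an ETS motif had 0.15 and the 43 without it 0.07. The 7 genes with a YY1 motif had a median of 0.24 and the 60 without it 0.12. The 5 genes with an E-box had -0.17 and the 62 without it 0.13. These 5 differed in sign, with *Mrps18c* at 0.28, *Mrpl37* at 0.24, *Mrpl20* at -0.17, *Mrpl2* at -0.29 and *Mrpl36* at -0.57. *Mrpl2* lies on chromosome 17 and *Mrpl36* on 13, where the detected genes as a whole had lower values. The part of a motif in any of these gaps was not tested.

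The promoters of the 4 members past 1.5-fold are printed here with their matches to these 4 motifs. Other stretches that they may share were not searched. Each is the 250 bases before the annotated start in GRCm38.p6, read 5′ to 3′ on the gene's strand, and capitals mark a match to a motif. *Mrpl18* is at chr17:12916092-12916341, minus strand, and holds an ETS motif 240 bases before the start. *Mrpl42* is at chr10:95501950-95502199, minus strand, *Mrps25* at chr6:92184024-92184273, minus strand, and *Mrpl24* at chr3:87919294-87919543, plus strand. These 3 hold none of the 4 motifs in this window.
Mrpl18: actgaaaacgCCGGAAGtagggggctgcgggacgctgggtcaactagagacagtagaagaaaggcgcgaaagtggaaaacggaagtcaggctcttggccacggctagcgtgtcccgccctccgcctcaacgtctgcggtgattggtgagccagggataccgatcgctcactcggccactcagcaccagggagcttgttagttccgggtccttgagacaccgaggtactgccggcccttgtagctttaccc
Mrpl42: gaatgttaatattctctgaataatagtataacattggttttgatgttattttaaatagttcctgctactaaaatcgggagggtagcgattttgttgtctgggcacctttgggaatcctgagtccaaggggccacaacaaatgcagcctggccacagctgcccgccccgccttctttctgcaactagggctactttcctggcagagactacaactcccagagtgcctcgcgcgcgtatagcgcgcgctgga
Mrps25: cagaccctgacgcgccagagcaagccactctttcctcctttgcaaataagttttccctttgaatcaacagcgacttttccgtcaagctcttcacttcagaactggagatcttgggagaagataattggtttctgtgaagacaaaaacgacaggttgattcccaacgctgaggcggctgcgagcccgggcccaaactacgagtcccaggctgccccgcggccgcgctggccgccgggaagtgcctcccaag
Mrpl24: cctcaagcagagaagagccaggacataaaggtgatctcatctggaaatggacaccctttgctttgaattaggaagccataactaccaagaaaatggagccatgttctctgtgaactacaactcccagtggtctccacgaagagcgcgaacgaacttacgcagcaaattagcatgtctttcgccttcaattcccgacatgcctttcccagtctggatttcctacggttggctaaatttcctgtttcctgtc

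Some mitoribosomal genes start back to back with another gene. In the same RefSeq table, 25 of the 67 members with a promoter had a start on the opposite strand within 1000 bases upstream. These made 21 distinct pairs with a detected partner. In 12 of these pairs both genes had the same sign of the mean ratio. Neither the share of such starts nor that of equal signs was counted over all genes, so both are descriptions only. *Mrpl18* starts 238 bases from *Tcp1*, a subunit of the cytosolic chaperonin, and the stretch printed above spans the gap between them. Its ETS motif, 240 bases before the *Mrpl18* start, thus lies at the annotated start of *Tcp1*. *Tcp1* was at 0.57 on array 1 and 0.63 on array 2, higher in B16F1-GFP-D like *Mrpl18* but by less. *Mrps11* and *Mrpl46*, 1 of each subunit, start 42 bases apart and had means of 0.43 and 0.25. *Mrpl51* starts 614 bases from *Ncapd2*, a condensin subunit, and had 0.30 beside 1.38. The pair of *Mrpl32* and the proteasome subunit *Psma2*, 205 bases apart, went opposite ways, with -0.49 and 0.56.

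Mitoribosomal proteins whose names follow other rules were described as a separate list of 7 genes, all detected. Their median was -0.17, with 2 higher and 5 lower on both arrays. The highest were *Ptcd3*, a small subunit protein with RNA-binding repeats, with 0.27, and *Mrpl58* (*Ict1* in the array files), a peptidyl-tRNA hydrolase built into the large subunit, with 0.20. *Gadd45gip1*, a large subunit protein, came next with -0.11. The lowest were *Mrpl57* (*Mrp63*) with -0.62, *Dap3*, a GTP-binding small subunit protein, with -0.27 and *Chchd1* with -0.24.

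The factors that work on the mitoribosome differed in both directions. The 16 translation factors and related genes had a median of 0.02, with 7 higher and 7 lower on both arrays. Past 1.5-fold upwards on both arrays were 2, *Gfm1* and *Tsfm*, where 8.77% of all detected genes were. *Gfm1*, the factor that moves the ribosome along the messenger, was at 0.88 and 1.08, and *Tsfm*, which exchanges the nucleotide of the elongation factor Tu, at 0.83 and 0.70. *Tufm*, that elongation factor itself, was at 0.48 and 0.60. *Mrrf*, the ribosome recycling factor, was at -0.69 and -0.82. It was the only one past 1.5-fold downwards, where 7.02% of all detected genes were. *Gfm2*, which acts with it in recycling, was at -0.28 and -0.21, and the initiation factor *Mtif3* had a mean of -0.17.

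Of 29 genes for mitoribosome assembly and the modification of its RNA, 28 were detected, with a median of -0.13. On both arrays 7 were higher and 16 lower, and none was past 1.5-fold, where 15.8% of all detected genes were. The highest were *Spg7* with 0.54 and *Afg3l2* with 0.40, the subunits of the m-AAA protease that cuts the protein of *Mrpl32*, and between them *Mpv17l2*, an assembly factor of the inner membrane, with 0.48. *Mrpl32* itself was at -0.49. The lowest were *Mrm1*, a ribosomal RNA methyltransferase, at -0.94 on array 1 and -0.45 on array 2, *Trub2*, a pseudouridine synthase, with a mean of -0.51, and *Ngrn*, with -0.45. Of 6 genes for mitochondrial RNA synthesis and decay, 3 were higher and 3 lower on both arrays. The RNA polymerase *Polrmt* and the helicase *Supv3l1* each had 0.38 and the exoribonuclease *Pnpt1* had 0.26, while the poly(A) polymerase *Mtpap* had -0.55, the transcription factor *Tfam* -0.45 and *Tfb2m* -0.15.

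The 9 regulators of nuclear mitochondrial genes had a median of -0.08, with 3 higher and 5 lower on both arrays. Their SD over genes was 1.02, against 0.37 for the members and 0.52 for all detected genes. It includes *Ppargc1a*, which lay furthest from 0 with a mean of 2.56. *Ppargc1a*, a coactivator of mitochondrial biogenesis, was at 2.38 on array 1 and 2.74 on array 2, *Esrra*, a nuclear receptor that works with it, at 0.87 and 0.65, and *Ppargc1b*, its relative, at 0.46 and 0.70. *Myc* was at -0.98 and -1.17. *Nrf1*, which encodes the factor of the first motif, had a mean of 0.10, *Gabpa* had -0.25 and *Yy1* -0.30.

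Beside 2 related sets, the mitoribosomal genes lay in between. Of 80 genes named *Rpl* or *Rps* for cytosolic ribosomal proteins 77 were detected, with a median of -0.13, 9 higher and 40 lower on both arrays. Another 28 of the 77 had opposite signs on the arrays, as did 16.2% of all detected genes. Their medians were -0.22 on array 1 and -0.09 on array 2 for the whole set of 77. *Rps19bp1*, a binding protein, and S6 kinases were left out. They ranged from *Rpl22l1* with -0.82, *Rps27* with -0.79 and *Rps18* with -0.66 to *Rps6* with 0.23, *Rpl11* with 0.35 and *Rpl7a* with 0.36, and short probes can also bind transcripts of their processed pseudogenes. Of 83 nuclear genes of the respiratory chain and ATP synthase 79 were detected, with a median of 0.29, 52 higher and 18 lower on both arrays. Past 1.5-fold were 13 upwards, against 8.77% of all detected genes, and 3 downwards, against 7.02%. The highest were *Cox7a1* with 1.98, *Uqcrh* with 1.56 and *Sdhd* with 1.35. The lowest were *Cox6a2*, *Ndufa7* with -0.96 and *Cox7a2l*, an assembly factor of chain supercomplexes, with -0.83. *Cox6a2* was well above background in B16F1-GFP-D on array 2 only, so its size is uncertain: it was -2.82 here, -3.74 with an offset of 0 in the background correction and -4.30 with the scanner software's ratio. The median of the members was 0.09, below that of the respiratory chain and above that of the cytosolic ribosome, and these orders were the same on each array.

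**Figure D5:**
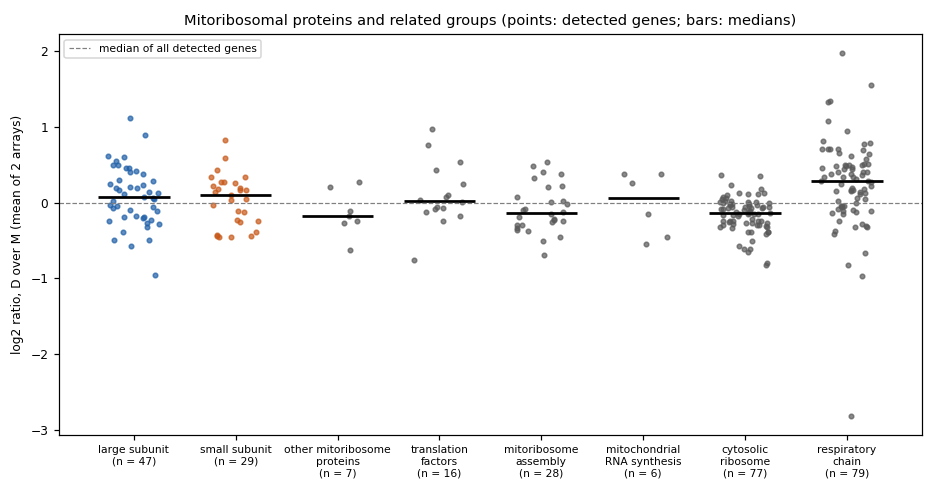
Mean log2 ratio of B16F1-GFP-D to B16F1-GFP-M (vertical axis) of each detected gene (points) in the large and small mitoribosomal subunit and 6 related groups, with thick bars for the median of each group and a dashed line for the median of all detected genes, -0.01. The medians run from -0.17 for the other mitoribosome proteins to 0.29 for the respiratory chain, and those of the large and small subunit are 0.07 and 0.11.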

How the data were processed

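The deposited scanner files hold the intensity of each spot and its local background, measured by the authors with Agilent Feature Extraction 10.7.3.1 (from the submitters' processing notes). The deposited log10 ratio of Cy5 over Cy3, which that software computed from background-subtracted, dye-normalized signals, and the series value table with the same log10 values served as alternatives. Other deposited columns give the software's flags.

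Outlier spots (143 on array 1, 176 on array 2, of 43379) were left out. In R 4.3.3 with limma 3.58.1, mean signals were corrected for the median background by normexp with an offset of 50, which draws dim ratios towards 0, and normalised by loess. Ratios were turned for the dye swap and replicate spots averaged. Line intensities are given after Aquantile scaling. On array 1, 44.1% of spots were well above background for B16F1-GFP-D and 60.7% for B16F1-GFP-M, on array 2 56.1% and 45.0%, and none was saturated. The number of arrays limits the precision. Simulated arrays with 200 changed probes were used to test the procedure. Names were updated through RefSeq accessions (27190 of 28075 probes matched). Tables and figures were made in Python 3.11.15 (pandas 2.3.3, numpy 2.4.6, matplotlib 3.10.9).

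Values named are the 8 highest and 8 lowest members, those past 1.5-fold on both arrays, those whose probes differ in sign, *Mrps18a*, *Mrps30*, and the 3 highest and lowest detected genes of each other list. Others were named with their values known. The members and lists were chosen with earlier results of these data known. Alternatives were each array alone, subunits by structure, the median over the probes of a gene, stricter or no filters for dim probes, the value table, other background corrections, median centring and Aquantile scaling.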

Additional observations from a re-analysis of the deposited data

How the results depend on the processing

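No paired analysis was possible because the labels give 1 replicate for either line. With each array alone, the large subunit median was 0.0414 to 0.0981, the small 0.0519 to 0.0742, their difference -0.0105 to 0.0239 and the median of all members 0.0449 to 0.0807, and 43 to 46 members were higher, 1 to 2 past 2-fold and 6 to 10 past 1.5-fold. The difference between the subunits thus changed sign between arrays. Reading a gene from the median over its probes gave 0.129 for the large subunit, 0.141 for the small, -0.0120 for the difference and 0.137 for all members. With the scanner software's log ratio the small subunit had 0.0642, the difference was -0.0080 and all members had 0.0602, and with the series value table these were 0.0641, -0.0081 and 0.0600. Without background subtraction the small subunit had 0.0868. With subunits by structure it had 0.135 and the difference was -0.0762. Median centring in place of loess left opposite dye shifts, with a median over all detected genes of -0.86 on array 1 and 1.02 on array 2. It gave 0.279 for the large subunit, 0.230 for the small, 0.0485 for the difference and 0.252 for all members, with all detected genes at 0.0670, and 1 member was higher on both arrays and 0 were past 1.5-fold or 2-fold. Otherwise, the background corrections, Aquantile scaling and the value table left 4 members past 1.5-fold and 1 past 2-fold, while 25.2% of all detected genes were past 1.5-fold with the scanner software's ratio. Dim probes limit the comparison of probes of the same gene.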
